A study of Mus musculus with 6 samples.

Results

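The genes described here are 10 components of Notch signalling and of entry into the T cell lineage: the receptors Notch1 and Notch2, the nuclear factor Rbpj, the target Hes1, the attenuators Nrarp and Dtx1, the glycosyltransferase Lfng and the transcription factors Tcf7, Bcl11b and Satb1. They were taken by symbol from the 54532 Ensembl genes of the deposited tables. All 10 were found, and all 10 were among the 14608 genes with enough reads for testing. Bcl11b had enough reads only through the R274X libraries. RNA came from 6 libraries of LSK cells, a gate of mouse bone marrow cells that lack lineage markers and carry Sca-1 and c-Kit, which holds blood stem cells and early progenitors. The 3 control libraries carried the genotype Phf6fl-R274X/Y, a floxed allele of Phf6, which lies on the X chromosome, in males without Cre. The 3 R274X libraries carried Vav1-Cre; Phf6fl-R274X/Y, so that the premature stop codon R274X is meant to form where the blood cell promoter of Vav1 drives Cre. Every R274X library and no control carried Cre, and its own effect cannot be told apart from that of the mutation. The labels name no ages and do not say whether each library is a different mouse. The p-values therefore rest on the variation among the libraries, part of which may be technical, and replicate numbers follow the order of deposit and pair nothing.

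Notch receptors sit in the cell membrane and are cut when a ligand on a neighbouring cell binds them. The freed intracellular part enters the nucleus, joins RBPJ and Mastermind proteins and turns on targets such as Hes1 and Nrarp. In the thymus this signal directs incoming progenitors to the T cell lineage and induces Tcf7, after which Gata3 and Bcl11b complete commitment. Blood progenitors in the marrow also carry Notch1 and Notch2 receptors.

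RefSeq promoter windows (assembly GRCm38.p6, from 250 bases before to 50 bases after a start site) were held for 9 of the 10 genes, all but Hes1. The windows of Lfng and Bcl11b and 1 of the 2 windows of Rbpj are shown as examples that hold a motif of this pathway. Windows of Satb1 and Tcf7 also held such motifs and are not shown. Capitals mark the core bound by RBPJ (TGGGAA, or TTCCCA on the other strand) and its extended form (CGTGGGAA or TTCCCACG), the core of TCF and LEF factors (CTTTGA or TCAAAG), and an E-box bound by E proteins (CAGGTG or CACCTG). The extended form contains the core, so the same bases can match both.
Lfng, chr5:140607091-140607390, plus strand: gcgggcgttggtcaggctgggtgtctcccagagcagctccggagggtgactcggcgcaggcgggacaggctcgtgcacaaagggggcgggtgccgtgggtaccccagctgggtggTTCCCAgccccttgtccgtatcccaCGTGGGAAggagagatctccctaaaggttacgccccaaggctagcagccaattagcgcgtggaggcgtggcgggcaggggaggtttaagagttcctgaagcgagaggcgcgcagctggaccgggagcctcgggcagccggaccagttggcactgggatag
Rbpj, chr5:53590096-53590395, plus strand: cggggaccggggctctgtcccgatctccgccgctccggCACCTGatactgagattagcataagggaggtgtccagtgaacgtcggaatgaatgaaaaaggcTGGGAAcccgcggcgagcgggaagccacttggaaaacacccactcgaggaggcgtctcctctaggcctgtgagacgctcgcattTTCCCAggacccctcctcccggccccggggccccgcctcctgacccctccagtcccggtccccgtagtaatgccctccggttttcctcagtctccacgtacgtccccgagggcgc
Bcl11b, chr12:108003365-108003664, minus strand: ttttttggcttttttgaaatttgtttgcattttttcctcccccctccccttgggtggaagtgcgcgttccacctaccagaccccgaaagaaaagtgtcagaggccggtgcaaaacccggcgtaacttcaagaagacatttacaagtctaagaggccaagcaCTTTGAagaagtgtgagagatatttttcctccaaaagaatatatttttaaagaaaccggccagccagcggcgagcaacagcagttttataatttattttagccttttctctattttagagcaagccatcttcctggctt
The Lfng window held the extended RBPJ motif from 110 bases before the start site and a reverse core from 135 bases before it. The extended form occurred in 0.734% of 32851 mouse promoter windows and in no other of the 15 windows of these genes. The core alone was in 25.6% of all windows and in windows of Rbpj, Lfng and Satb1. The TCF and LEF core was found in 16.0% of all windows and, among these genes, in that of Bcl11b, 89 bases before its start. The E-box was in 20.2% of all windows and in those of Rbpj, Tcf7 and Satb1. A match is a description of the letters and not of binding.

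The libraries held 15406314 to 18106065 counts. Phf6, the targeted gene, measured 31.77, 29.59 and 33.53 CPM (counts scaled to library size) in controls 1 to 3 and 8.47, 10.25 and 8.29 CPM in R274X libraries 1 to 3. Its log2 fold change was -1.81 (edgeR adjusted p = 6.67e-06). Kit and Ly6a, the genes of the gate, were read in all 6 libraries. Kit gave 148.4 to 172.74 CPM in controls and 84.53 to 113.12 CPM in R274X libraries, and Ly6a gave 135.92 to 145.5 and 229.04 to 256.2 CPM. Transcripts of lineages that the gate should remove were also present and were higher in the R274X libraries. Immunoglobulin genes took 0.293% to 1.18% of counts in controls and 4.45% to 7.95% in R274X libraries. B cell markers rose in 8 of 12 tested genes and those of plasma and plasmacytoid dendritic cells in 10 of 13. With 1 library left out these numbers ran from 2 to 9 and from 5 to 9, and without a count filter 4 B cell markers rose. Macrophage markers rose in 5 of 8 genes, 5 without R274X 3 and 0 or 1 without any other library in edgeR, where at least 6 had an unadjusted p under 0.05, and in 8 of 8 in DESeq2. Of the genes that mark stem and progenitor cells of the gate 7 of 10 fell and 1 rose. Erythroid markers rose in 2 of 6 genes (Alas2 and Hbb-bs), 1 to 4 with a library left out and 4 in DESeq2, and their summed level was 2.36 times that of controls. Of 5 tested markers of stroma and endothelium 2 fell (Emcn and Pdgfrb) and 1 rose (Cdh5). Emcn went from 19.7 ± 0.96 to 6.54 ± 0.558 CPM (SD, n = 3 each). Whether its reads came from endothelium or from cells of the gate was not tested. Cdh5 had 12, 6 and 11 counts in controls and 31, 31 and 11 in R274X libraries. It passed the count filter only through the R274X libraries and did not pass in DESeq2.

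Of the 10 genes, 5 passed an adjusted p of 0.05 in edgeR's quasi-likelihood test over all genes. Notch1, Notch2 and Satb1 were lower in the R274X libraries, and Tcf7 and Bcl11b were higher. Bcl11b entered the test only through its reads in the R274X libraries, which favours a higher call. Over all tested genes 17.9% passed, 10.1% as higher and 7.89% as lower. The division over all genes was 1469 higher against 1152 lower, 1215 against 1430 with upper-quartile scaling, and 663 against 1144 with quantile normalization of the authors' FPKM values. The groups did not overlap in CPM for 7 of the 10 genes, against 37.2% of all tested genes. Of these, 3 lay higher (18.9% of all genes) and 4 lower (18.3%). The number called fell to 1 to 3 without any library but R274X 3, and rose to 7 without that one. The median log2 fold change of the 10 genes was 0.34, against -0.02 over all tested genes. In bulk RNA, fewer cells of a type and less RNA per cell cannot be told apart.

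**Figure D1:**
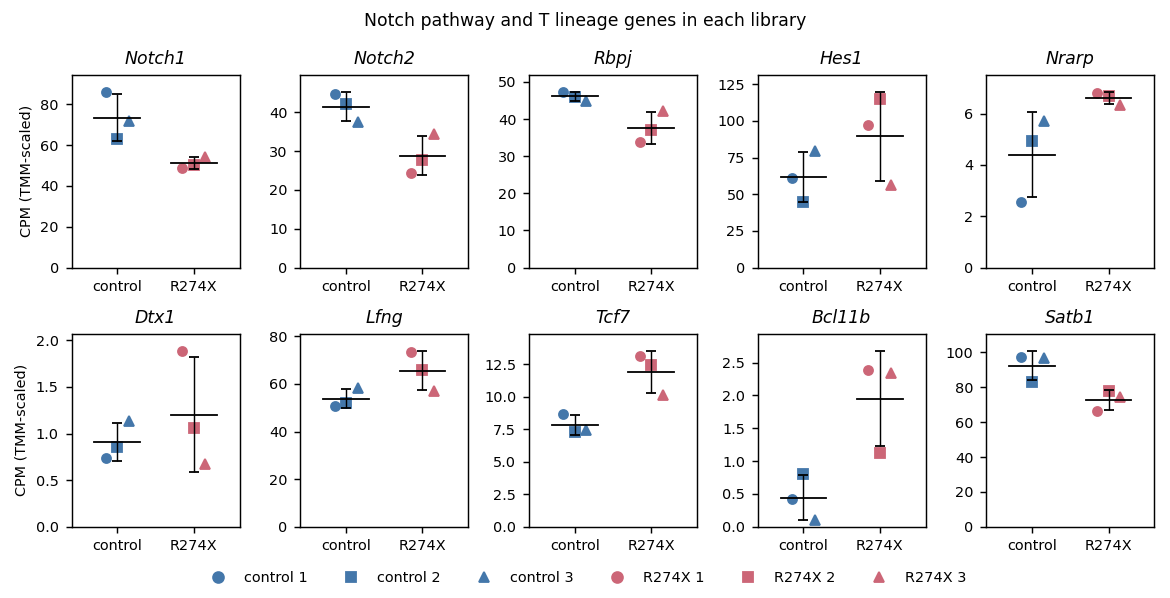
TMM-scaled CPM of the 10 genes in each library (points), with the group mean (horizontal line) and SD (error bar, n = 3). Notch1, Notch2, Rbpj and Satb1 lie lower in all 3 R274X libraries than in any control, Nrarp, Tcf7 and Bcl11b lie higher, and Hes1, Dtx1 and Lfng overlap.

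Both receptors fell by about the same amount. Notch1 (ENSMUSG00000026923, GRCm38 chromosome 2, 26457903 to 26516663, protein-coding), the main receptor of T lineage induction, measured 85.98, 62.82 and 71.7 CPM in the controls and 48.89, 50.26 and 54.25 CPM in the R274X libraries. The lowest control lay above the highest R274X library, and the controls were more widely spread. Its level was 1.44-fold lower, a log2 fold change of -0.52 (SE 0.107, edgeR adjusted p = 0.00659). This call held whichever library was left out (adjusted p from 0.00583 to 0.0461).

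Notch2 (ENSMUSG00000027878, chromosome 3, 98013527 to 98150361), the receptor needed for marginal zone B cells, measured 44.79, 42.23 and 37.46 CPM in controls. The R274X libraries gave 24.45, 27.64 and 34.45 CPM. The third R274X library came closest to the controls without reaching them. This was also 1.44-fold lower (log2 fold change -0.52, SE 0.125, edgeR adjusted p = 0.014). The call was lost without control 1, control 2, R274X 1 or R274X 2, with edgeR adjusted p from 0.0639 to 0.0677. With limma on log2(FPKM + 1), where 11.5% of genes passed, neither receptor was called (adjusted p of 0.0607 for Notch1 and 0.0711 for Notch2).

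Of the other genes that build, modify or cleave the receptors, 15 were tested, 3 fell and none rose, with a median log2 fold change of -0.07. With Notch1 and Notch2 included 5 fell, and 1, 1, 3, 1, 1 and 5 fell without controls 1 to 3 and R274X libraries 1 to 3 in turn, and 2 in DESeq2. Furin, the convertase that cuts the receptor during its maturation, fell 1.24-fold (52.7 ± 4.77 to 42.7 ± 2.28 CPM). Poglut1, which adds glucose to the receptor's EGF repeats, fell 1.25-fold (31.0 ± 0.93 to 24.9 ± 1.58 CPM). Adam10, the protease that makes the ligand-dependent cut, fell 1.19-fold (98.5 ± 5.29 to 83.0 ± 4.92 CPM; SD, n = 3 each). Their edgeR adjusted p values were 0.0344, 0.0383 and 0.0407. All 3 lost the call in DESeq2 (adjusted p of 0.0514, 0.0767 and 0.0646), and each lost it without at least 4 of the 6 libraries. The subunits of gamma-secretase, the complex of the final cut, gave log2 fold changes from -0.32 for Aph1c to 0.32 for Aph1b, and none passed. The receptor Notch4 stood at 1.38 to 2.85 CPM in controls and 1.88 to 3.75 CPM in R274X libraries, and Notch3 had too few reads for a test.

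Lfng (ENSMUSG00000029570, chromosome 5, 140607320 to 140615545), which adds N-acetylglucosamine to the receptor and shifts its choice of ligand, measured 50.83, 52.15 and 58.46 CPM in controls and 73.34, 66.07 and 56.99 CPM in R274X libraries. R274X 3 fell inside the range of the controls. The log2 fold change of 0.28 (95% interval 0.07 to 0.50) did not pass (edgeR adjusted p = 0.0668), and it passed without R274X 3 (0.37, adjusted p = 0.0102) and without a count filter (0.26, adjusted p = 0.0345). Its relatives Mfng and Rfng had log2 fold changes of -0.13 and -0.21 and did not pass.

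Notch ligands were scarce. Of 8 ligand genes and their ubiquitin ligases, 4 had enough reads, and none passed in edgeR, 2 having an unadjusted p under 0.05, nor did any of 8 in DESeq2. Jag2 was the most abundant ligand, at 23.88, 24.01 and 21.64 CPM in controls and 13.52, 20.83 and 18.19 CPM in R274X libraries. All 3 R274X values lay below the controls (log2 fold change -0.40, edgeR adjusted p = 0.0721), and it passed without R274X 2 (-0.55, adjusted p = 0.0458) and without a count filter (-0.42, adjusted p = 0.00993). Dll1, Dll4, Jag1 and Dlk1 stayed under 2 CPM in every library. Mib1, the ubiquitin ligase that lets ligands signal, had 30.39 to 33.48 CPM in controls and 23.67 to 27.25 CPM in R274X libraries (log2 fold change -0.28, edgeR adjusted p = 0.0672). Mib1 passed with upper-quartile scaling (-0.33, adjusted p = 0.0398).

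Rbpj (ENSMUSG00000039191, chromosome 5, 53466152 to 53657362), the DNA-binding factor through which all Notch receptors act, lay just on the other side of the threshold. It measured 47.28, 46.04 and 45.0 CPM in controls and 33.7, 36.97 and 42.28 CPM in R274X libraries. The controls were tightly grouped, the R274X libraries were spread, and the groups did not overlap. Its log2 fold change of -0.29 missed the threshold (SE 0.0957, 95% interval -0.50 to -0.09, edgeR adjusted p = 0.0509). It passed with upper-quartile scaling (-0.34, adjusted p = 0.0335), limma-voom (adjusted p = 0.0464), immunoglobulin genes removed (0.0481), either other count filter (0.0183 and 0.0499) or without R274X 3 (-0.38, 0.0107). Its adjusted p over the other alternatives ran up to 0.226.

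Among 16 other tested genes of the nuclear complex, its coactivators and its corepressors, 5 fell and none rose, with a median of -0.17. The coactivators that fell were Ep300, the histone acetyltransferase p300 (1.40-fold, 51.9 ± 3.91 to 36.9 ± 4.34 CPM, edgeR adjusted p = 0.00643), and the Mastermind gene Maml3 (1.32-fold, 0.0378). The corepressors Spen (1.39-fold, edgeR adjusted p = 0.00683) and L3mbtl3 (1.52-fold, 0.00606) also fell. Both coactivators and corepressors of Notch targets were thus among the genes that fell. Maml1 and Maml2 gave log2 fold changes of -0.08 and -0.51 and did not pass. With Rbpj included, leaving out 1 library changed the number lower to between 4 and 6, and 1 rose without R274X 3. Maml3 lost the call in DESeq2 (adjusted p = 0.058) and without control 1, control 3, R274X 1 or R274X 2 (0.0875 to 0.134).

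**Figure D2:**
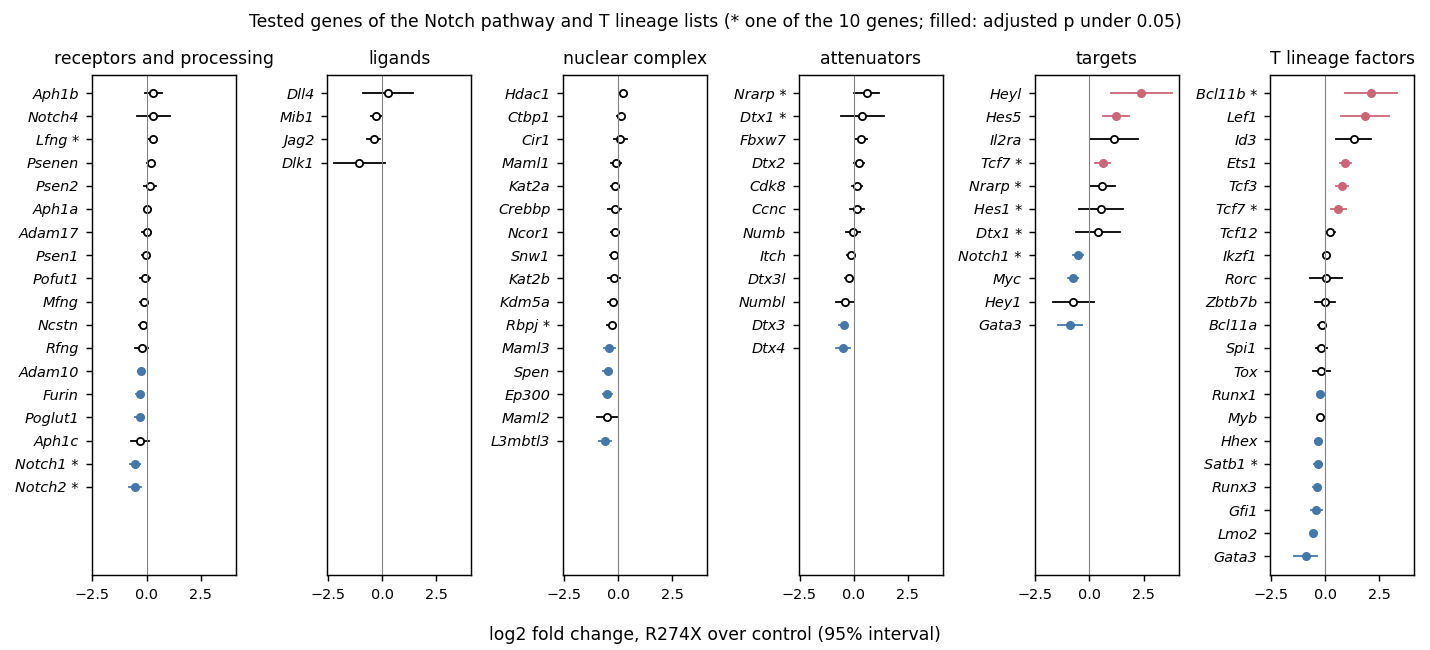
Log2 fold change (R274X over control) with its 95% interval for the tested genes of 6 lists except 1 that is not reported here; filled blue points were called lower, filled red points called higher and open points not called in edgeR, and stars mark the 10 genes. Calls among receptors, nuclear complex and attenuators are all lower in this fit, while targets and T lineage factors hold calls in both directions. Attenuators hold only 2 calls among 12 tested genes. Without R274X 3, the receptor, nuclear complex and attenuator lists each held 1 higher call. Over all tested genes 17.9% were called, 10.1% as higher and 7.89% as lower.

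Hes1 (ENSMUSG00000022528, chromosome 16, 30064384 to 30067796), a transcriptional repressor and the classical Notch target, varied too much within groups to be called. It measured 60.94, 44.91 and 79.23 CPM in controls and 97.08, 115.07 and 56.19 CPM in R274X libraries. R274X 3 lay below controls 1 and 3. The difference of 0.54 on the log2 scale had a wide interval (95% interval -0.47 to 1.55, edgeR adjusted p = 0.406), and in no alternative did it pass. Within each group the order of its levels was that of the immunoglobulin percentage, which was 0.649%, 0.293% and 1.18% in controls and 6.85%, 7.95% and 4.45% in R274X libraries. Hes1 was the only one of the 10 genes with that order, which 4.79% of all tested genes showed. The part of B-lineage RNA in its level was not tested.

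Other members of the Hes and Hey family of repressors were far less abundant. Hes5 measured 2.38, 1.45 and 2.96 CPM in controls and 5.37, 5.69 and 4.88 CPM in R274X libraries. All R274X values lay above the controls, and the gene rose 2.34-fold (log2 fold change 1.23, SE 0.279, edgeR adjusted p = 0.0103), also without any single library. Like those of Hes1, the levels of Hes5 had the order of the immunoglobulin percentage within each group. The part of B-lineage RNA in them was not tested. Heyl rose from 1, 11 and 2 counts to 21, 25 and 15 counts (log2 fold change 2.39, SE 0.658, adjusted p = 0.0258). Heyl passed the count filter only through the R274X libraries, and it lost the call without control 1, control 3, R274X 1 or R274X 2 (adjusted p from 0.0816 to 0.109). Hey1 gave a log2 fold change of -0.75 that did not pass (adjusted p = 0.259).

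Over the list of genes known as Notch targets in blood, 11 of 15 were tested, 3 rose, 3 fell and 5 did not pass (median 0.54, and 0.19 over the 6 tested genes outside the 10). Besides Hes5 and Heyl the one that rose was Tcf7. Those that fell were Notch1, Gata3 and Myc, the growth regulator, which went from 153 ± 7.5 to 91.3 ± 14.4 CPM (SD, n = 3 each, log2 fold change -0.74, edgeR adjusted p = 0.000855). When controls 1 to 3 and then R274X libraries 1 to 3 were left out, 2, 2, 1, 1, 1 and 3 targets rose and 2, 2, 3, 2, 2 and 2 fell. Ptcra, a pre-T cell receptor gene that Notch induces in the thymus, had 3 counts in all 6 libraries together.

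Nrarp (ENSMUSG00000078202, chromosome 2, 25180758 to 25183339), a small ankyrin repeat protein that is induced by Notch and limits it, measured 2.54, 4.93 and 5.71 CPM in controls. In the R274X libraries it measured 6.79, 6.68 and 6.35 CPM. The R274X libraries were close together and all above the controls, of which control 1 was far below the others. The log2 fold change of 0.59 (95% interval 0.01 to 1.17) did not pass (edgeR adjusted p = 0.147), and without control 1 it was 0.30.

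Dtx1 (ENSMUSG00000029603, chromosome 5, 120680202 to 120711927), an E3 ubiquitin ligase of the Deltex family that acts on Notch, was near the limit of the counts. It had 14, 16 and 21 counts in controls and 29, 16 and 10 counts in R274X libraries, or 0.74, 0.86 and 1.13 against 1.88, 1.06 and 0.67 CPM. The highest and the lowest values were both in R274X libraries. The log2 fold change of 0.40 (95% interval -0.60 to 1.40, edgeR adjusted p = 0.589) turned to -0.07 without R274X 1, so no direction was detectable at this depth.

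The other Deltex genes were more abundant, and 2 of them fell. Dtx3 fell 1.39-fold, from 107.16, 128.04 and 111.85 CPM to 78.51, 81.14 and 90.17 CPM (edgeR adjusted p = 0.00323) and Dtx4 fell 1.41-fold (20.2 ± 2.15 to 14.4 ± 2.46 CPM; SD, n = 3 each, adjusted p = 0.0324). Dtx4 lost the call without control 1, control 2, R274X 1 or R274X 2 (adjusted p from 0.0872 to 0.137), while Dtx3 kept it without any 1 library. Dtx2 and Dtx3l gave log2 fold changes of 0.24 and -0.21 and did not pass (edgeR adjusted p of 0.157 and 0.139). Dtx3 and Dtx4 were the 2 calls among 12 tested attenuators (median 0.07), of which 1 was left with the robust option off. Over all tested genes 17.9% were called. Without R274X 3, 1 attenuator was called higher. Numb, Itch and Fbxw7, which promote turnover of Notch, gave log2 fold changes of -0.02, -0.11 and 0.32 and did not pass.

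Of the T lineage factors, Tcf7 (ENSMUSG00000000782, chromosome 11, 52252371 to 52283014), which encodes TCF1 and is among the first factors of T lineage specification, rose 1.52-fold. It measured 8.68, 7.29 and 7.43 CPM in controls and 13.13, 12.43 and 10.1 CPM in R274X libraries. All R274X values lay above the controls, R274X 3 the nearest. In log2 terms this was 0.61 (SE 0.162, edgeR adjusted p = 0.0226). With limma on log2(FPKM + 1) 8 of the 10 genes were tested, and only Tcf7 passed (adjusted p = 0.0392). The filter of that fit left out Bcl11b and Dtx1. Tcf7 lost the call without control 2, control 3, R274X 1 or R274X 2 (edgeR adjusted p from 0.0657 to 0.107). Gm26551, a gene on the same strand inside the span of Tcf7 that shares no exon bases with it, held 11.6% as many counts.

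Bcl11b (ENSMUSG00000048251, chromosome 12, 107910403 to 108003602), the zinc finger factor of T cell commitment, was scarce in every library. It had 8, 15 and 2 counts in controls and 37, 17 and 35 counts in R274X libraries. These correspond to 0.42, 0.80 and 0.11 CPM against 2.39, 1.12 and 2.34 CPM. All R274X values lay above the controls. The log2 fold change was 2.11 (SE 0.563, 95% interval 0.90 to 3.33, edgeR adjusted p = 0.0223). Bcl11b passed the count filter only through the R274X libraries, and selection through the higher group favours a higher call. It lost the call without control 1 (adjusted p = 0.0847), control 3 (0.0572) or R274X 1 (0.105), and values at this level carry a large counting error.

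Satb1 (ENSMUSG00000023927, chromosome 17, 51736187 to 51833290), a chromatin organizer of early lymphoid progenitors and T cells, had the highest CPM of the 10 genes in controls and moved the other way. It measured 97.1, 82.81 and 97.05 CPM in controls and 66.42, 77.64 and 74.18 CPM in R274X libraries. The groups did not overlap, and R274X 2 was the nearest to control 2. The level was 1.27-fold lower (log2 fold change -0.34, SE 0.0871, edgeR adjusted p = 0.0177). The call was lost without control 1 (-0.32, adjusted p = 0.0738), control 3 (-0.32, 0.0611) or R274X 1 (-0.28, 0.0882), and with limma on log2(FPKM + 1) (0.0978).

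Over the whole list of 21 T lineage transcription factors, 5 rose and 7 fell, with a median log2 fold change of -0.17. Besides Tcf7 and Bcl11b, those that rose were Ets1 (45.4 ± 3.35 to 86.4 ± 14.5 CPM, edgeR adjusted p = 0.000621), Tcf3, which encodes E proteins (212 ± 1.7 to 366 ± 69.8 CPM, 0.00313), and Lef1, a relative of Tcf7 (6.76 ± 3.21 to 24.0 ± 6.65 CPM; SD, n = 3 each, 0.0464). Tcf3 and Ets1 also act in B-lineage cells. Gata3, which follows Tcf7 in T lineage specification, fell 1.86-fold, from 3.81, 4.18 and 3.93 CPM to 2.26, 2.18 and 1.94 CPM (adjusted p = 0.0273). Lmo2, a stem and progenitor factor that is shut off at T commitment, fell 1.45-fold (adjusted p = 0.000833), and Hhex, Runx3, Gfi1 and Runx1 fell 1.25-, 1.30-, 1.33- and 1.16-fold. Without controls 1 to 3 and then R274X libraries 1 to 3, 3, 3, 3, 2, 3 and 7 factors rose and 4, 3, 5, 2, 5 and 5 fell. Gata3 lost the call without any library except control 3 (adjusted p from 0.0523 to 0.0866), and Lef1 lost it without control 1, control 2, R274X 1 or R274X 2 (0.0726 to 0.159).

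Markers of T cells were higher in the same libraries as Tcf7 and Bcl11b. Of 19 tested T cell markers 13 rose and 1 fell (Lat), with a median log2 fold change of 0.96. The number that rose was 8, 9 and 13 without controls 1 to 3 and 9, 10 and 11 without R274X libraries 1 to 3. Cd3g, a CD3 chain that signals for the T cell receptor, measured 1.64, 1.07 and 1.29 CPM in controls and 7.24, 4.3 and 6.29 CPM in R274X libraries (log2 fold change 2.15, edgeR adjusted p = 0.000619). Cd3d measured 2.59, 2.2 and 1.83 against 7.37, 4.36 and 7.16 CPM (1.51, 0.00295). Markers of NK and innate lymphoid cells moved in the same libraries, with 4 of 10 higher (Gzma, Klrb1c, Tbx21 and Eomes) and Nkg7 lower, a median log2 fold change of 0.79. Tbx21, with 7, 7 and 22 counts in controls and 41, 33 and 24 in R274X libraries, passed the count filter only through the R274X libraries. Nkg7, the most abundant of the 10 markers, gave 140.97 to 165.13 CPM in controls and 74.99 to 101.61 CPM in R274X libraries. The summed level of these markers, most of it Nkg7, was 172 to 186 CPM in controls and 110 to 154 CPM in R274X libraries. With 1 library left out 0 to 4 of them rose in edgeR, 0 being without control 2, where 5 of the 10 had an unadjusted p under 0.05, and 5 rose in DESeq2.

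Cd3e had 3, 7 and 2 counts in controls and 24, 20 and 10 in R274X libraries, so this marker was near 0 in controls and, like Bcl11b, passed the count filter only through the R274X libraries. Lck, a kinase of T cell receptor signalling, was at 46.63 to 60.18 CPM in controls and 59.39 to 61.96 CPM in R274X libraries and did not pass (0.17, edgeR adjusted p = 0.246). Lat (means of 62.8 CPM in controls, 44.1 CPM in R274X libraries) and Lck (54.2, 61.0 CPM) were the most abundant T cell markers. They held the largest parts of the sum of the 19 markers. The summed level of the 19 markers was 169 to 206 CPM in controls and 227 to 244 CPM in R274X libraries, a ratio of 1.26. That of Cd3d, Cd3e and Cd3g was 3.23 to 4.39 CPM and 9.99 to 16.2 CPM, a ratio of 3.57. The exact two-sided permutation p was 0.1 for both sums, the smallest that 3 against 3 libraries allow. The part of T cells in the higher Tcf7 and Bcl11b levels was not tested.

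**Figure D3:**
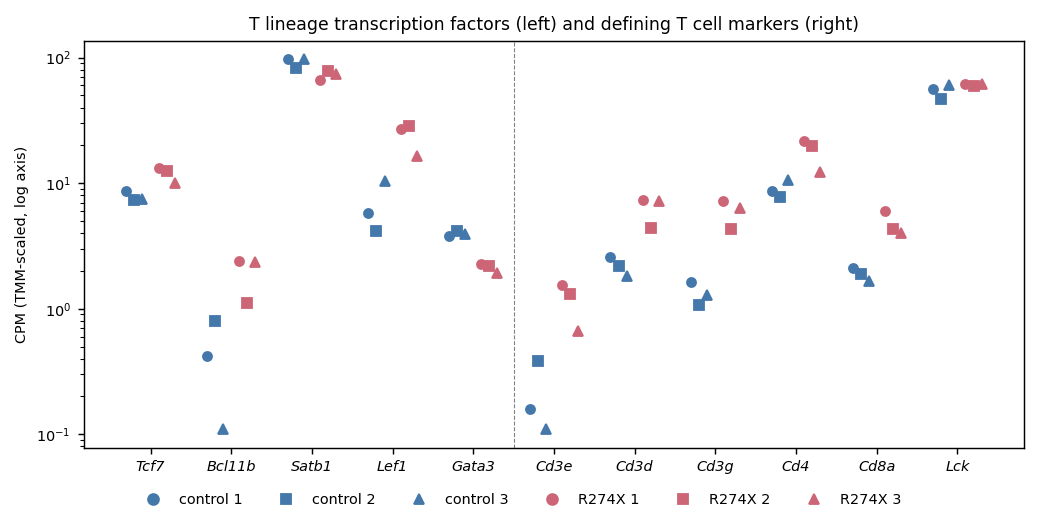
CPM (log axis) in each library for 5 T lineage transcription factors (left of the dashed line) and 6 defining T cell markers (right). Tcf7, Bcl11b, Lef1, Cd3e, Cd3d, Cd3g, Cd4 and Cd8a lie higher in all R274X libraries, Satb1 and Gata3 lie lower, and Lck overlaps.

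Early lymphoid genes held calls in both directions as well, with a median log2 fold change of 0.79. Of 12 tested, Ccr9 (1.95-fold) and Ccr7 (2.09-fold), chemokine receptors that guide progenitors to the thymus, rose, while the receptor genes Kit (1.64-fold), Cd27 (1.39-fold) and Flt3 (1.27-fold) fell. Leaving out a library gave 1 to 3 that rose and 3 or 4 that fell, and without R274X 1 only 1 rose. In DESeq2, and in edgeR with the robust option off, 5 rose and 3 fell. Ccr9 is also a marker of plasmacytoid dendritic cells, whose list rose as given above.

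Per kilobase, on the scale of the authors' FPKM, Hes1 and Lfng led the 10 genes in both groups. In controls the order was Hes1 (30.1 ± 8.53 FPKM), Lfng (21.3 ± 1.71), Notch1 (5.12 ± 0.827), Satb1 (4.81 ± 0.454), Notch2 (3.81 ± 0.331), Rbpj (3.58 ± 0.0837), Tcf7 (2.95 ± 0.294), Nrarp (1.69 ± 0.636), Dtx1 (0.171 ± 0.0383) and Bcl11b (0.0542 ± 0.0423; SD, n = 3 each). Hes1 and Lfng, Notch1 and Satb1, and Notch2 and Rbpj overlapped between libraries and could not be ordered. In R274X libraries Tcf7 stood next after Hes1 (43.8 ± 14.7 FPKM) and Lfng (26.1 ± 3.21), at 4.51 ± 0.594 FPKM, and overlapped with Satb1 (3.81 ± 0.306). Satb1 in turn overlapped with Notch1 (3.58 ± 0.202), and Rbpj, Notch2 and Nrarp followed at 2.94 ± 0.345, 2.67 ± 0.478 and 2.55 ± 0.0823 FPKM. In these libraries Hes1 also overlapped with Lfng, and Notch2 with both Rbpj and Nrarp, so that they could not be ordered. Bcl11b (0.240 ± 0.0883 FPKM) and Dtx1 (0.227 ± 0.116 FPKM) came last and overlapped. These FPKM levels use all annotated exons of a gene, 19027 bases for Satb1 and 2037 for Hes1, which lowers the value of a gene with long unused exons.

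**Figure D4:**
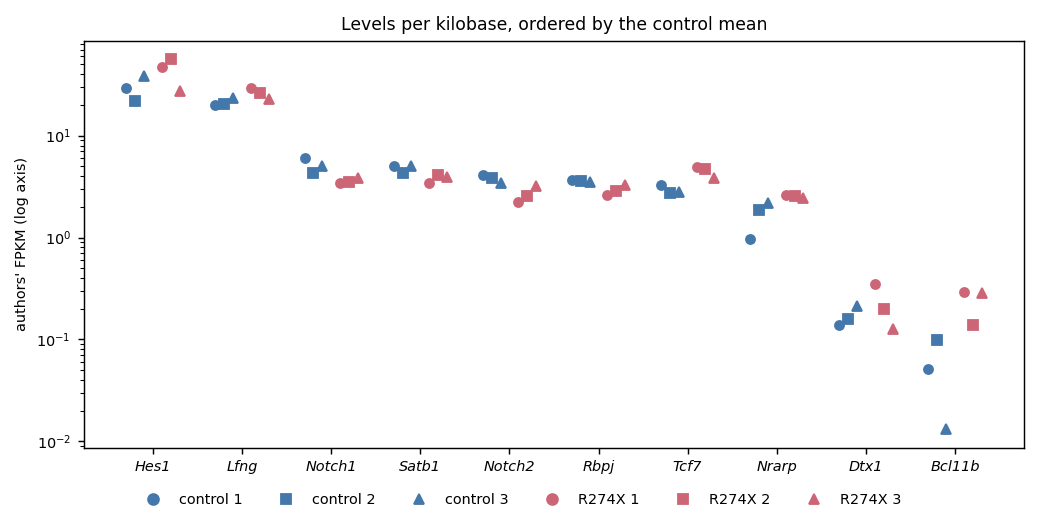
The authors' FPKM (log axis) of the 10 genes in each library, ordered by the control mean. Hes1 and Lfng lie above 20 FPKM in every library and Dtx1 and Bcl11b below 0.5 FPKM.

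The third R274X library was the nearest of its group to the control mean for 7 of the 10 genes, namely Notch1, Notch2, Rbpj, Hes1, Nrarp, Lfng and Tcf7. It was so for 47.2% of all tested genes and for 67.0% of the 2621 called genes. The same library had the lowest immunoglobulin percentage of its group.

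Across the 6 libraries, the genes whose log2(CPM + 1) was most like that of Notch1 were Cggbp1 (Pearson r = 0.9918), Osbpl8 (0.9916) and Dnajc10 (0.9907), out of 10795 genes of at least 5 CPM on average. Those most like Tcf7 were Mrps21 (0.999), Dnajc19 (0.9976) and Dpysl2 (0.9968). The 6 points share the difference between the groups, which raises every such value. Cggbp1 shows that a like shape need not mean a like size, since its log2 fold change was -0.12 (edgeR adjusted p = 0.258).

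**Figure D5:**
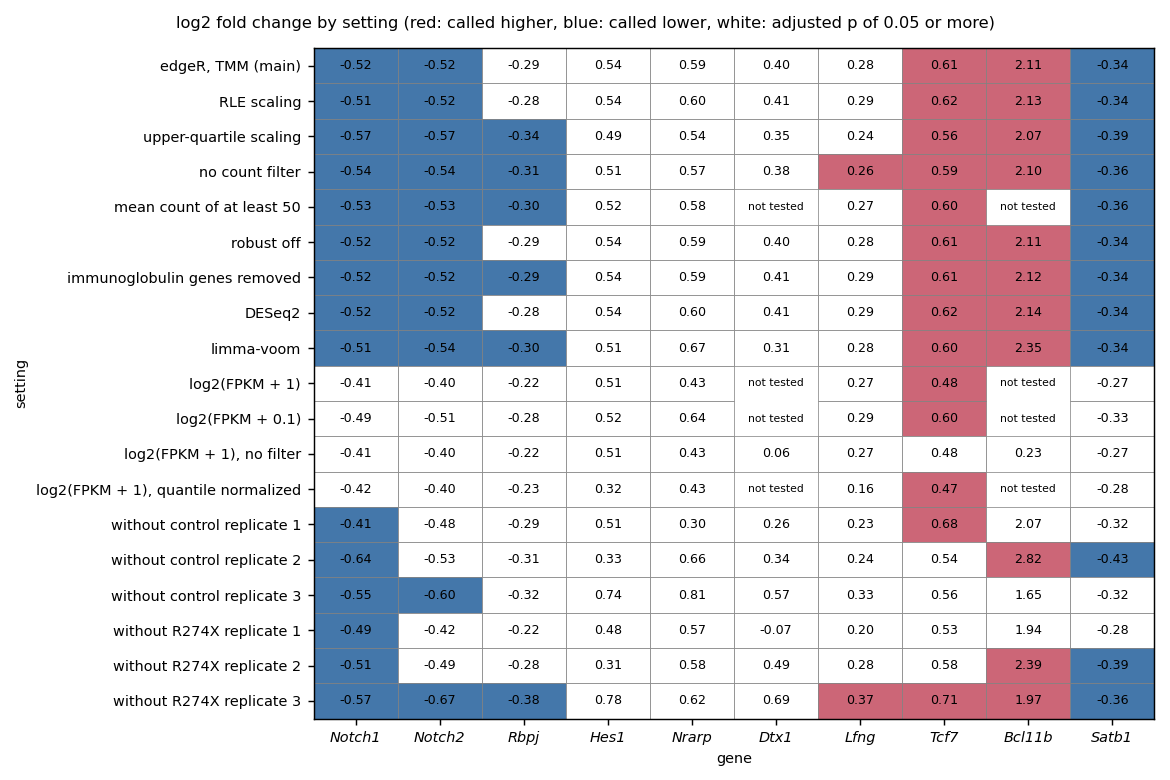
Log2 fold change of the 10 genes in each setting (numbers), coloured where the adjusted p was under 0.05. Notch1 is called without any single library, Hes1, Nrarp and Dtx1 are called in no setting, and no gene but Dtx1 changes sign.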

How the data were processed

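RNA was extracted with TRIzol, and libraries were built with a TruSeq RNA kit, per the labels' protocols, which do not mention strand. The authors deposited whole-number read counts and FPKM values per Ensembl gene, per the file headers. Per the submitters' processing notes, Bowtie and mm8 were used; the counting tool is not given there. The identifiers and the lengths behind the FPKM values belong to a later annotation: 54409 of 54532 identifiers matched GENCODE M21 (GRCm38), and its merged exon lengths matched within 0.01% for 94.4% to 94.6% of genes. Coordinates are therefore those of GRCm38. The authors' FPKM values imply library sizes of 14959849 to 19039127, which are not the count totals.

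Counts were tested with edgeR 4.0.16 (quasi-likelihood, TMM, default count filter with a minimum count of 10, robust option, Benjamini-Hochberg adjustment over all tested genes). CPM values use the TMM factors. Alternatives were RLE and upper-quartile scaling, DESeq2 1.42.0, limma-voom and limma 3.58.1 on log2(FPKM + 1) or log2(FPKM + 0.1) with a mean of at least 0.5 FPKM, other filters, the robust option off, removal of immunoglobulin genes and leaving out each library. Summed marker levels were compared with exact permutation tests in SciPy 1.17.1; their alternatives were chosen after seeing the data. The scripts were tested on simulated counts. No pair of replicates agreed within sampling noise (chi-square per gene at least 12.04). The genes and the 15 lists were chosen with earlier results of these data known. Named were the 10 genes, Phf6, any called gene and the smallest p-values of each Notch and T lineage list, defining T cell markers, up to 4 genes of other lists and the 3 genes most like Notch1 and Tcf7; Mfng, Rfng, Aph1b, Aph1c, Hey1, Maml1, Maml2, Numb, Itch, Dtx2, Dtx3l, Eomes, Ccr7, the unabundant receptors and ligands and Ptcra were named after their values were seen. The values of 1 gene of the lists, which the list counts include, are not reported here. Genes overlapping exons of the 10 genes held at most 1.66% as many counts.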

Additional observations from a re-analysis of the deposited data

How the results depend on the processing

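The number of genes past the threshold over the whole table was 2621. It was 1581 with limma on log2(FPKM + 1), 1532 on log2(FPKM + 0.1) and 660 on log2(FPKM + 1) without a filter, and 1218 to 3295 with 1 library left out, where fewer samples were tested. Of the 10 genes 5 passed. The number was 1 on log2(FPKM + 1), 1 on log2(FPKM + 0.1), 1 with quantile normalization and, in limma without a filter, 0, where 7 had an unadjusted p under 0.05. It was 1 to 7 with 1 library left out. The cause was not tested. The fit of FPKM with a filter left out Bcl11b and Dtx1. Under RLE or upper-quartile scaling, DESeq2, limma-voom, no count filter, the robust option off or removal of immunoglobulin genes the number stayed within 1.5 times 5. Of 172 pairs of a gene of the 10 and an alternative, 135 kept direction and side of the threshold, 28 lost the call, 8 gained one and 1 reversed, Dtx1 at -0.07 without R274X 1 (-0.07 to 0.69 with 1 library left out). The ratio of the summed T cell markers was 1.26 and kept its direction in every alternative run. No paired analysis was possible because the labels give the groups no shared replicate numbers. Depth limits Bcl11b, Dtx1 and Heyl, which had under 40 counts in every library.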
